A study of Mus musculus with 6 samples.

Results

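The anaphase-promoting complex is the ubiquitin ligase that ends mitosis, and the genes described here are 8 of its subunits (Anapc1, Anapc2, Anapc4, Anapc5, Anapc7, Anapc10, Anapc11 and Anapc13) and its 2 activators, Cdc20 and Fzr1. These 10 genes were taken by symbol from the 24393 features of the count tables. They were chosen by the measured difference of 1 of them, Anapc10, between HOXA13 and control libraries, and the others were set beside it as parts of the same complex. The values of this contrast are therefore given for the 10 genes as a description, and no finding about them rests on a test of it.

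RNA was sequenced from cultures of KH2 mouse embryonic stem cells (strain label C57/BL/6) of genotype CONTROL or HOXA13, with 3 libraries in each group and no treatment given in the labels. According to the methods of the study, the HOXA13 cells carried a human HOXA13 gene with an N-terminal tag, placed by FLP recombination behind a doxycycline-dependent promoter and selected as targeted colonies. All cultures of both genotypes grew with LIF on irradiated 3T3-Swiss albino fibroblasts as feeder cells, so that feeder RNA can be among the counts, and the methods call the 3 cultures of each genotype biological replicates without saying whether each was a separate clone. The labels call the cells that were harvested de-differentiated, and they do not say whether doxycycline was present in the sequenced cultures.

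Total counts were 14608681 to 21766589 in control libraries and 13494135 to 20374341 in HOXA13 libraries, at which 3 counts correspond to 0.134 to 0.227 CPM (counts scaled to library size with TMM factors). The human HOXA13 identifier held 6, 0 and 0 counts in the controls and 4298, 4177 and 2881 in the HOXA13 libraries. Embryonic stem cell markers such as Pou5f1, Nanog and Sox2 were present in every library, with a summed level of 2169 to 2969 CPM in controls and 2847 to 2931 CPM in HOXA13 libraries, and 4 of the 8 were called higher and 1 lower, beside 14.4% and 13.3% of all genes tested. Summed fibroblast markers lay between 3382 and 5204 CPM in controls and between 4830 and 6150 CPM in HOXA13 libraries. Of these, 0 of 10 passed the test (edgeR's quasi-likelihood test, adjusted p under 0.05), beside 27.7% of all genes tested. At an unadjusted p under 0.05 it was 1 of 10, higher in HOXA13 libraries, beside 5534 of the 13846 genes tested. DESeq2 called 1 of the 10 and limma-voom 0. With the replicate block 2 were called higher, without control replicate 1 there was 1 higher and 1 lower (Thy1), and without control replicate 2 there was 1 higher. Summed mesendoderm markers spread from 36.1 to 370 CPM over the 3 controls and from 20.02 to 22.4 CPM over the HOXA13 libraries, with 4 of 7 tested genes called lower, beside 13.3% of all genes tested. In bulk RNA, fewer cells of a type and less RNA per cell cannot be told apart.

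The complex joins ubiquitin to mitotic cyclins, securin and other cell cycle proteins and so marks them for the proteasome. Its large platform subunits hold a catalytic module, an arm of repeat proteins and a substrate receptor, which is formed by Anapc10 together with an activator. Cdc20 activates the complex in mitosis and Fzr1, also known as Cdh1, at mitotic exit and in G1. Mouse embryonic stem cells divide fast with a short G1, and the complex and its inhibitors are known as part of the control of their cycle.

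Anapc10, the subunit that recognises the destruction motifs of substrates together with the activator, had 676, 446 and 607 counts in the controls and 3261, 2730 and 1883 counts in the HOXA13 libraries. Its level was 30.1, 30.3 and 30.6 CPM in controls and 165, 150.2 and 142 CPM in HOXA13 libraries. Every HOXA13 library lay far above every control library, and the controls were almost equal to each other. At 446 to 676 counts, sampling of reads alone usually gives a wider spread than this. The closeness of the controls is therefore not read as a trait of the cultures. The means were 30.4 ± 0.27 CPM (SD, n = 3) and 152.6 ± 11.8 CPM (SD, n = 3), which is a log2 change of 2.33 with a standard error (SE) of 0.077, or 5.03-fold. Of the 13846 genes tested, 109 had a larger log2 change, and 6 of those 109 had a mean CPM over the 6 libraries, not divided by length, at or above the 91.5 of Anapc10. The part of the feeder, mesendoderm and embryonic stem cell marker levels given above in this difference was not tested.

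**Figure D1:**
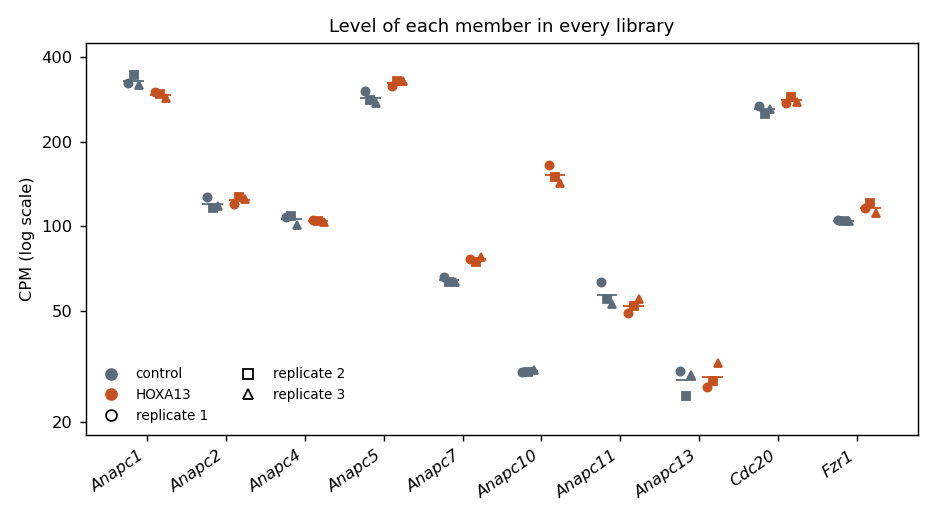
Level of each of the 10 genes in CPM (logarithmic axis) in every library, with controls in grey, HOXA13 libraries in orange, the symbol giving the replicate and a horizontal line at the group mean. Anapc10 stands at about 30 CPM in all controls and between 142 and 165 CPM in the HOXA13 libraries, while the other 9 genes keep to nearly the same level in both groups.

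Over the whole table, 2 of the 10 genes, Anapc10 and Anapc7, had an adjusted p under 0.05, both higher in HOXA13 libraries, beside 27.7% of all genes tested (14.4% higher and 13.3% lower). In 6 of the 10 genes the groups did not overlap, beside 45.7% of all genes tested. With library size alone it was also 6 of 10, where Anapc5 and Cdc20 then overlapped and Anapc4 and Anapc11 did not, both lower in HOXA13 libraries. The call of Anapc7 was lost in 6 of the 13 alternatives. Since this contrast chose the genes, these counts are given for completeness and nothing is read from them. Without Anapc10, the log2 changes of the other 9 ran from -0.16 to 0.25 with a median of 0.04, against a median of 0.00 over all genes tested.

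The platform of the complex is built from Anapc1, Anapc4 and Anapc5. Anapc1 (chr2:128435840-128513127 in mm9, minus strand), the largest subunit, stood at 324, 344 and 318 CPM in controls and at 300.5, 294 and 287 CPM in HOXA13 libraries. All HOXA13 libraries were below all controls, by a log2 change of -0.16 (SE 0.059). Anapc5 (chr5:123237478-123271348, minus strand) lay at 302, 282 and 274 CPM in controls and at 315, 328 and 329 CPM in HOXA13 libraries. Here the HOXA13 libraries were the higher ones without overlap, with a log2 change of 0.18 (SE 0.061), but with library size alone the groups overlapped and the log2 change was 0.11. Anapc4 (chr5:53225254-53259036, plus strand) had group means of 106 and 104 CPM with overlapping libraries, and a log2 change of -0.02 (SE 0.061).

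Anapc2, the cullin of the catalytic module, and Anapc11, its RING finger partner that recruits the ubiquitin-conjugating enzyme, overlapped between the groups. Anapc2 (chr2:25127998-25141435, plus strand) was at 127, 116 and 118 CPM in controls and at 120.1, 127 and 124 CPM in HOXA13 libraries. Anapc11 (chr11:120459735-120469512, plus strand) was at 63.3, 55.1 and 52.7 CPM in controls and at 49.1, 51.9 and 54.8 CPM in HOXA13 libraries. In both genes control replicate 1 was the highest of the controls, and 1 or more HOXA13 libraries lay within the control range. The log2 changes were 0.04 (SE 0.065) for Anapc2 and -0.14 (SE 0.090) for Anapc11.

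The repeat-protein arm is represented by Anapc7, which is one of its stacked subunits, and by Anapc13, a small protein that stabilises the arm. Anapc7 (chr5:122871702-122894921, plus strand) lay at 65.9, 63.0 and 63.2 CPM in controls and at 76.2, 74.7 and 77.7 CPM in HOXA13 libraries. The groups were apart and each was narrow, and the log2 change of 0.25 (SE 0.062) was the largest of the 10 genes after that of Anapc10. Anapc13 (chr9:102528626-102536571, plus strand) lay at 30.5, 24.8 and 29.5 CPM in controls and at 26.8, 28.0 and 32.6 CPM in HOXA13 libraries. These ranges overlapped, and the log2 change was 0.04 with the widest standard error of the 10 genes, 0.114. In the annotation Anapc13 shares 102 of its 405 exon bases with Cep63 on the other strand, and the strand setting of the counting is not stated, so its count can hold reads of Cep63.

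Of the activators, Cdc20 (chr4:118105506-118109957, minus strand) had 268, 250.4 and 262 CPM in controls and 275, 289 and 277 CPM in HOXA13 libraries. Fzr1 (chr10:80828967-80841261, minus strand) had 105, 104.0 and 104.1 CPM in controls and 116, 121 and 111 CPM in HOXA13 libraries. Both activators were higher in each HOXA13 library than in each control, by log2 changes of 0.11 (SE 0.058) and 0.15 (SE 0.061). With library size alone these were 0.03 and 0.08, and the groups of Cdc20 overlapped. Cdc20 shares 53 exon bases with Elovl1 on the other strand, and Fzr1 shares 4 with F630110N24Rik.

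Of the further subunits Anapc15, Anapc16, Cdc16, Cdc23, Cdc26 and Cdc27, 0 of 6 passed the threshold in edgeR, beside 27.7% of all genes tested. It was also 0 of 6 in each of the 13 alternatives, DESeq2 and limma-voom among them. At an unadjusted p under 0.05 it was 0 of 6, beside 5534 of the 13846 genes tested. In 0 of 6 were the groups apart, beside 45.7% of all genes tested. Their log2 changes ran from -0.13 in Cdc27 (adjusted p = 0.266, edgeR), a core subunit of the arm, to 0.06 in Cdc16 (adjusted p = 0.451, edgeR). Cdc23, another arm subunit, had a log2 change of 0.00 (SE 0.063), and Cdc26, which stabilises Cdc16, one of -0.03 (SE 0.094). Anapc15, which helps the complex shed its checkpoint inhibitor, lay at 23.7 to 25.7 CPM in controls and at 23.0 to 25.8 CPM in HOXA13 libraries. Anapc16, a small arm subunit, lay at 30.3 to 31.7 CPM in controls and at 29.3 to 32.9 CPM in HOXA13 libraries.

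**Figure D2:**
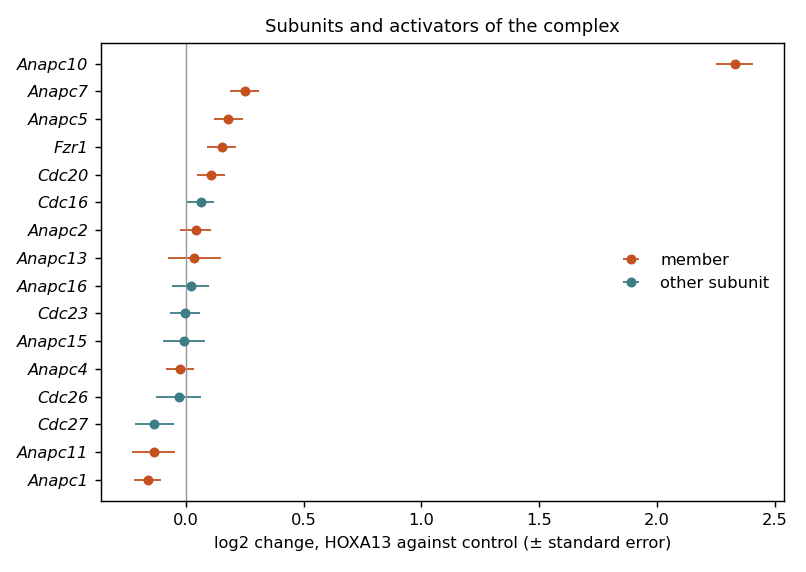
Log2 fold change between HOXA13 and control libraries with its standard error for the 10 genes (orange) and 6 further subunits (teal), in order of size. Anapc10 lies at 2.33 and every other subunit or activator between -0.16 and 0.25.

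A ratio within each library does not depend on the scaling between libraries. The log2 CPM of Anapc10 minus the mean log2 CPM of the other 7 subunits was -1.84, -1.73 and -1.71 in controls and 0.69, 0.52 and 0.40 in HOXA13 libraries. In CPM not divided by length, Anapc10 was thus below the average of its partners in each control and above it in each HOXA13 library. The difference between the group means was 2.30, which length does not change. Whether Anapc10 lies above or below its partners within a library can depend on length. The other 7 subunits summed to 1021, 994 and 957 CPM in controls and to 993, 1008 and 1008 CPM in HOXA13 libraries, ranges that overlap.

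Levels were compared between genes per kilobase of the coding transcript with the longest reading frame. In controls Cdc20 was the highest at 145 ± 5.00 CPM per kb (SD, n = 3), followed by Anapc5, Anapc13, Anapc11, Anapc2, Anapc1, Fzr1, Anapc4 and Anapc7. Anapc10 was the lowest at 10.8 ± 0.10 CPM per kb (SD, n = 3), and its libraries did not overlap those of the next gene, Anapc7, at 23.3 ± 0.59 CPM per kb (SD, n = 3). Neighbours in this order whose libraries overlapped were Anapc13 with Anapc11 and Anapc2 with Anapc1. In HOXA13 libraries Anapc10 was the fourth of the 10 at 54.5 ± 4.21 CPM per kb (SD, n = 3), overlapping Anapc11 at 54.0 ± 2.94 CPM per kb (SD, n = 3), and below Anapc13 at 71.9 ± 7.51 CPM per kb (SD, n = 3). Anapc7 and Anapc4 were then the lowest, with overlapping libraries. The share of Anapc10 in the summed level per kilobase of the 8 subunits was 2.74, 3.00 and 3.02% in controls and 14.1, 12.6 and 11.6% in HOXA13 libraries. The place of Anapc11 depends on the transcript chosen, because its control level is 59.3 CPM per kb over 962 bases and 17.7 CPM per kb over its longest coding transcript of 3229 bases.

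Among the replicates, the 10 genes varied little. The median range between the highest and the lowest library was 0.11 on the log2 scale in controls and 0.08 in HOXA13 libraries, against 0.32 and 0.18 over all genes tested, many of which are less abundant. In 8 of the 10 genes the controls spread wider than the HOXA13 libraries, as in 9868 of the 13846 genes tested. Anapc10 and Fzr1 were the exceptions. The coefficient of variation of Anapc10 was 0.891% in controls and 7.73% in HOXA13 libraries, where replicate 1 was the highest and replicate 3 the lowest.

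Anapc10 (ENSMUSG00000036977.7) lies on the plus strand of chromosome 8 at chr8:82235719-82301220 in mm9, with 5 exons and 2802 exon bases, and no annotated gene overlaps it. Its start faces that of Abce1, the ATPase that splits ribosomes for recycling, which runs the other way and begins 80 bases off. Abce1 (ENSMUSG00000058355.6, chr8:82207341-82235639, minus strand) is no part of the complex and was not used to choose the genes. The sequence between the nearest RefSeq starts of the pair (chr8:82235640-82235661 in mm9, plus strand, 22 bases) is shown because both genes read away from it, with capitals at the letters of the cAMP response element, TGACGTCA.

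Abce1-Anapc10: ggTGACGTCAttgcgccgcgac

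This motif reads the same on both strands and was looked for after the sequence had been seen. Among windows of 79 bases at all annotated starts, 0.989% held it, and among the RefSeq promoters of GRCm38.p6 (250 bases before to 50 after a start) 1.79% did. Of the promoters of the 10 genes, that of Anapc10 was the single one with a match. The full gap of 79 bases between the 2 genes in GENCODE, chr8:82235640-82235718, had 65.8% G and C against a median of 55.7% over windows of that length. It also held 1 CCAAT box on either strand, starting at position 24 counted from the Abce1 end, as did 15.1% of all windows. The letters TTTAC and TTTAT, which form the core of motifs bound by HOX13 proteins, were not in these 79 bases, and 8.52% and 14.5% of all windows held them. A match of letters is no proof of binding, and the lack of one says nothing about it.

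Abce1 rose in HOXA13 libraries along with Anapc10, though by less. It had 16126, 11080 and 14357 counts in controls and 26125, 21585 and 15024 in HOXA13 libraries, that is 719, 752 and 725 CPM in controls and 1326, 1187 and 1135 CPM in HOXA13 libraries. The groups were apart, and the order of the HOXA13 replicates was that seen for Anapc10. That order was also seen in other genes, such as Anapc1, Anapc4, Rrm2 and Anln, so it does not set this pair apart. The log2 change was 0.73 (SE 0.072, adjusted p = 0.000327 with edgeR), and Abce1 passed the threshold in all 13 alternatives. Counts of Anapc10 were 4.19, 4.03 and 4.23% of those of Abce1 in controls and 12.5, 12.6 and 12.5% in HOXA13 libraries. Within a group this ratio was nearly fixed, at 4.15 ± 0.11% (SD, n = 3) and 12.6 ± 0.085% (SD, n = 3), and it was 3.03 times as high in HOXA13 libraries. No other pair of genes was compared in this way, and a link between Anapc10 and Abce1 was not tested.

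**Figure D3:**
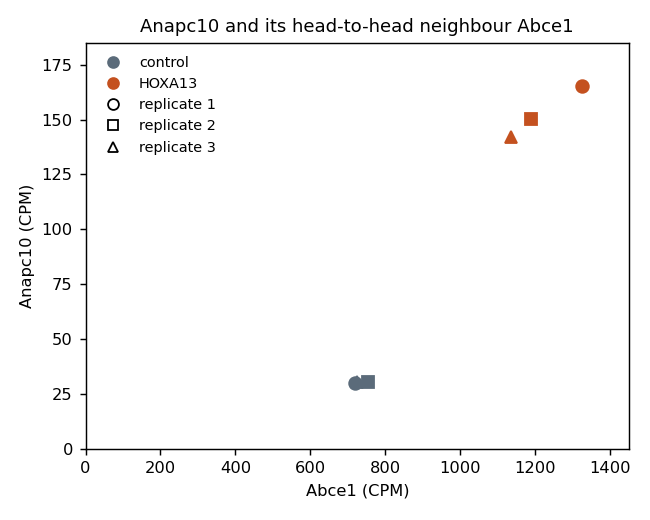
Level of Anapc10 against that of Abce1, both in CPM, in the 3 control (grey) and 3 HOXA13 libraries (orange), with the symbol giving the replicate. The controls lie together at about 30 CPM of Anapc10. In the HOXA13 libraries both genes are highest in replicate 1 and lowest in replicate 3, as are other genes such as Anapc1 and Rrm2.

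Other genes with a start within 500 kb of that of Anapc10 differed in both directions. Otud4, a deubiquitinase, had a log2 change of -0.09 (SE 0.074, adjusted p = 0.384, edgeR). Smad1, which relays BMP signals, had one of 0.03 (SE 0.092, adjusted p = 0.859, edgeR). Both lie on the side of Abce1, and their groups overlapped. Mmaa, a mitochondrial cobalamin protein 417 kb away, was higher at low levels, from 3.41 ± 0.41 to 6.40 ± 1.16 CPM (SD, n = 3), with a log2 change of 0.92 (adjusted p = 0.0108, edgeR). That call was lost without HOXA13 replicate 1 or 2, with adjusted p up to 0.0607. Gm4890 beside it had a log2 change of 0.57 (adjusted p = 0.186, edgeR), and 1700011L22Rik was too low to be tested. Hhip, an antagonist of hedgehog ligands and the nearest gene on the other side at 346 kb, fell from 5.05 ± 0.50 to 2.33 ± 0.33 CPM (SD, n = 3), a log2 change of -1.11 (adjusted p = 0.00422, edgeR). Over the 675 tested genes of chromosome 8 the median log2 change was -0.02.

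**Figure D4:**
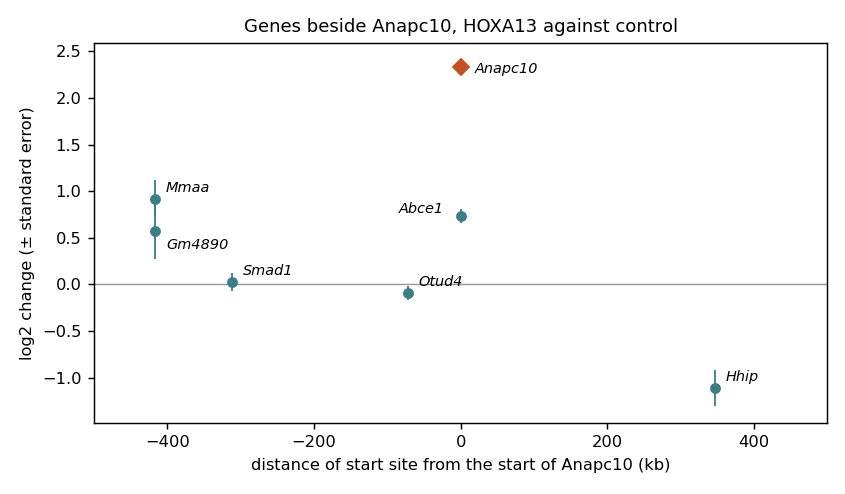
Log2 fold change with its standard error (vertical axis) of Anapc10 (diamond) and of the 6 tested genes whose start lies within 500 kb, by distance of their start from that of Anapc10 in kb (horizontal axis). Abce1 at the same place stands at 0.73, Otud4 and Smad1 near 0, Mmaa and Gm4890 at 0.92 and 0.57, and Hhip at -1.11.

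The genes around the complex were taken from 3 more lists, made by role but with earlier results of these data known. The ubiquitin-conjugating enzymes that work with the complex did not pass the threshold. In edgeR, DESeq2 and limma-voom 0 of 3 were called, beside 27.7% of all genes tested in edgeR. At an unadjusted p under 0.05 it was 1 of 3, Ube2d1, beside 5534 of the 13846 genes tested. Ube2c, which starts the chain, had a log2 change of 0.05 (adjusted p = 0.629, edgeR), and Ube2s, which extends it, stood at only 3.19 to 6.27 CPM. Ube2d1, an alternative starter, was at 30.1 to 32.0 CPM in controls and at 25.9 to 27.4 CPM in HOXA13 libraries (log2 change -0.23, adjusted p = 0.0571, edgeR). It passed the threshold as lower with library size alone and without control replicate 2.

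Of the inhibitors of the complex and the spindle checkpoint genes, 2 of 9 tested were called, both higher, beside 27.7% called and 14.4% higher over all genes tested, and the list's median log2 change was 0.08. Fbxo5, also known as Emi1, which blocks the complex in S and G2 phase, rose from 97.7, 96.2 and 109 CPM in controls to 153, 139.5 and 139.3 CPM in HOXA13 libraries. The groups were apart, with a log2 change of 0.51 (SE 0.075, adjusted p = 0.00198, edgeR), and the call was kept in all 13 alternatives. Mad2l1, the checkpoint protein that sequesters Cdc20, had a log2 change of 0.24 (SE 0.072, adjusted p = 0.0398, edgeR), a call lost in 6 of the 13. The other 7 tested, Mad1l1, Mad2l1bp, Trip13, Bub1, Bub1b, Bub3 and Ttk, ran from -0.14 to 0.17. Fbxo43, the related inhibitor of meiosis, was too low to be tested, at 0.134 to 0.558 CPM in the 6 libraries.

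Among genes listed as substrates, whose proteins the complex marks for destruction, 13 of 24 rose and 0 fell (edgeR, with DESeq2 and limma-voom giving the same numbers). Of all genes tested, 14.4% rose and 13.3% fell. At an unadjusted p under 0.05 it was 14 and 0 of 24, beside 2786 and 2748 of the 13846 genes tested. In 15 of 24 the groups did not overlap, beside 45.7% of all genes tested. Many of the genes tested are less abundant than these 24, and no background of like abundance was drawn. The median log2 change of the list was 0.23. It stayed positive in all 13 alternatives, but the number called ran from 7 to 15. Rrm2, the small subunit of ribonucleotide reductase, had the largest change, from 296, 393 and 328 CPM in controls to 714, 683 and 672 CPM in HOXA13 libraries. All HOXA13 libraries were well above all controls (log2 change 1.03, SE 0.101, adjusted p = 0.00033, edgeR).

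Of the further substrates that rose, Cenpf, a kinetochore protein, rose by a log2 change of 0.73 (adjusted p = 0.000351, edgeR), and so did Anln, the furrow protein anillin, from 204, 206 and 199 CPM to 365, 326 and 320 CPM (adjusted p = 0.000243, edgeR). Nek2, a centrosome kinase, rose by 0.67 (adjusted p = 0.00133, edgeR), and Kif22, a chromosome motor, by 0.46 (adjusted p = 0.0013, edgeR). Bard1, the partner of Brca1, rose by 0.53 (adjusted p = 0.00491, edgeR), and Gmnn, the licensing inhibitor geminin, by 0.36 (adjusted p = 0.00691, edgeR). These 6 and Rrm2 kept their calls in all 13 alternatives.

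Of the other 6 substrates called, Pttg1, which encodes securin, rose from 27.9, 21.8 and 24.9 CPM to 33.0, 33.8 and 33.1 CPM (log2 change 0.42, adjusted p = 0.0183, edgeR). Ccna2, cyclin A, rose by 0.27 (adjusted p = 0.0178, edgeR), and Ccnb2, a B-type cyclin, by 0.27 (adjusted p = 0.0479, edgeR). Tk1, thymidine kinase, rose by 0.38 (adjusted p = 0.0418, edgeR), and the spindle genes Tpx2 and Kif11 by 0.23 (adjusted p = 0.0173, edgeR) and 0.22 (adjusted p = 0.0358, edgeR). These 6 calls were less firm, since Pttg1 was lost in 4, Ccna2 in 3, Ccnb2 in 9, Tk1 in 7, Tpx2 in 5 and Kif11 in 6 of the 13 alternatives. Ccnb1, cyclin B1, had a log2 change of 0.19 and did not pass (adjusted p = 0.114, edgeR). Neither did the mitotic kinases Aurka, Aurkb and Plk1, the separase gene Espl1, nor Skp2, Cdc6, Cdca3, Hmmr, Sgol1 and Top2a, which lay between -0.21 and 0.13. Espl1 is counted among the 24, though separase is the protease that securin restrains rather than a settled substrate. The 24 substrates summed to 3966 to 4578 CPM in controls and to 5017 to 5414 CPM in HOXA13 libraries, and the part of the mesendoderm and fibroblast marker levels given above in this difference was not tested.

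**Figure D5:**
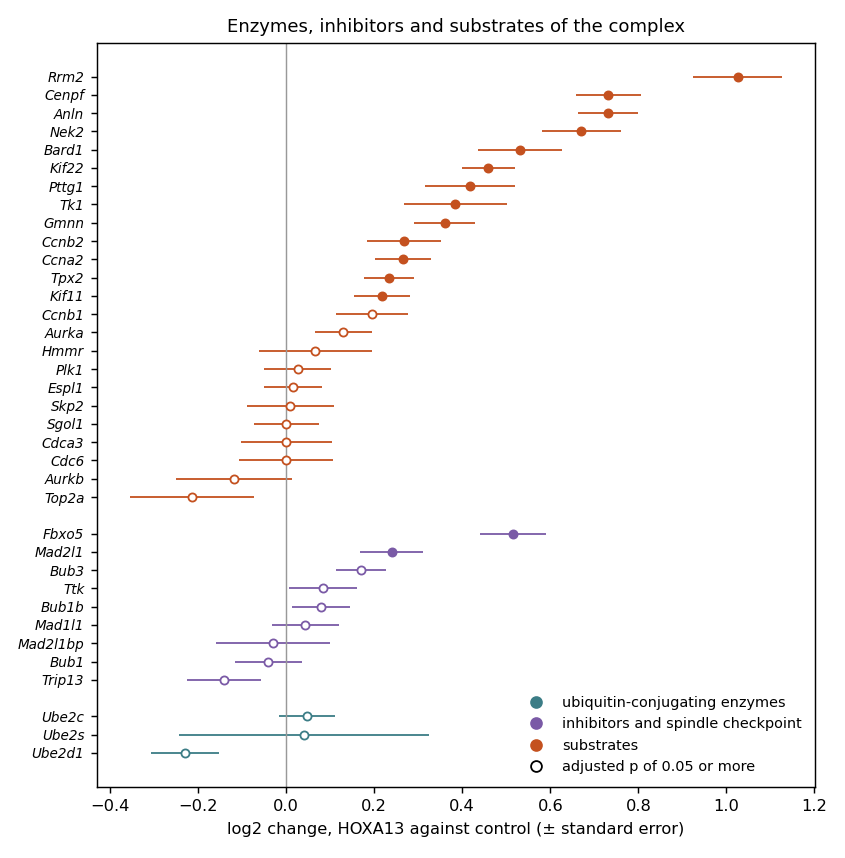
Log2 fold change with its standard error for 24 substrates (orange), 9 inhibitors and checkpoint genes (purple) and 3 ubiquitin-conjugating enzymes (teal), with open symbols for an adjusted p of 0.05 or more in edgeR. Of the substrates 13 are filled and all of these lie above 0, led by Rrm2 at 1.03, and of the inhibitors Fbxo5 leads at 0.51.

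The genes whose profile over the 6 libraries was most like that of Anapc10 were found by the root mean square distance between log2 CPM profiles, each centred on its own mean, over the 12945 genes that averaged 1 CPM or more. They were AI118078 at a distance of 0.10, Gca at 0.12, Fsbp at 0.13, Lrr1 at 0.14 and Zbtb10 at 0.14. Zbtb10, a zinc finger gene, had the most counts of them, at 21.6, 26.2 and 28.3 CPM in controls and at 160, 134 and 134 CPM in HOXA13 libraries. Gca, which encodes the calcium-binding protein grancalcin, stood at 13.4, 13.2 and 13.9 CPM in controls and at 64.8, 54.8 and 53.4 CPM in HOXA13 libraries. None of the 5 belongs to the complex, and the nearest of the other 9 genes was Anapc7, at a distance of 1.04 and in place 2709. The profiles were centred but not scaled, so the distance largely follows the size of the log2 change, by which Anapc10 was chosen. The distance to the other 9 genes was thus set in advance by that choice, and nothing is read from it.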

How the data were processed

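Libraries were prepared by the authors with a directional kit, and reads of 75 bases were aligned to mm9 (TopHat2 2.0.14 in the submitters' processing notes, Tophat 2.1.0 in the methods of the study). The authors counted reads per gene with HTSeq 0.6.1p1 and deposited whole-number counts without normalization. The annotation and strand setting are not given in the sources used here. Counts were filtered with filterByExpr (minimum count 10, total 15), scaled by TMM and tested with edgeR 4.0.16 (quasi-likelihood, Benjamini-Hochberg over 13846 genes, threshold 0.05, R 4.3.3). Each log2 change, taken without its sign, was divided by the square root of F to give its standard error. The study calls the 3 cultures of a genotype biological replicates, and p-values measure the spread between them. That spread was unequal. Between pairs of libraries the chi-square of counts per degree of freedom was 12.7 to 34.2 in controls and 1.89 to 6.03 in HOXA13 libraries. The fit shares its dispersion between the groups. Positions came from GENCODE vM1 on mm9, matched by unique symbol for 20641 of 24393 features. Named genes were the 10 members, the 6 other subunits, list genes past the threshold, genes starting within 500 kb of Anapc10 and the 5 nearest profiles; other list genes are named to complete a count. The members and lists were chosen with earlier results of these data known. The fit was tested on simulated data. Alternatives were RLE factors, library size alone, other filters, a replicate block, DESeq2 1.42.0, limma-voom (limma 3.58.1) and leaving out each library.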

Additional observations from a re-analysis of the deposited data

How the results depend on the processing

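Over 13 alternatives the log2 change of Anapc10 ran from 2.26 to 2.38. Relative to the other members or subunits, its difference ran from 2.21 to 2.37. Leaving out 1 library at a time gave 2038 to 5007 genes called (1134 to 2428 higher, 904 to 2579 lower), against 3836. The fewest calls came without HOXA13 replicate 1, 2 or 3 (2038, 2104 and 2311). Leaving out libraries also gave 8 to 17 of 42 tested genes (the 6 further subunits and the genes around the complex) (8 to 17 higher, 0 to 1 lower), against 15, with 8 or 9 without control replicate 3 or any 1 HOXA13 library. With library size alone 1577 genes were higher and 2499 lower, and 1 of these 42, Ube2d1, was lower. Replicate numbers did not pair the libraries (correlations of deviations -0.04 to 0.01), and with the replicate block 3172 genes and 11 of the 42 were called. Anapc7 lost its call with the block, with library size alone, without control replicate 3 and without any 1 HOXA13 library. With library size alone the log2 changes of Anapc1, Anapc4, Anapc5, Anapc7, Cdc20 and Fzr1 moved to -0.23, -0.10, 0.11, 0.18, 0.03 and 0.08. Anapc1 was then called lower, and Anapc5 higher without control replicate 1. Differences near 0 changed sign without passing the threshold. With library size alone these were Anapc2 (-0.031), Anapc13 (-0.037), Anapc16 (-0.053), Cdc16 (-0.0098) and Smad1 (-0.046), and without the filter Cdc23 (0.0041). With 1 library left out, Anapc13 ran from -0.059 to 0.097, Anapc15 from -0.053 to 0.031, Anapc16 from -0.010 to 0.072, Cdc23 from -0.036 to 0.038, Cdc26 from -0.092 to 0.014 and Smad1 from -0.045 to 0.11. The cause was not tested.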
